A study of Sus scrofa with 16 samples.

Results

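The genes described here encode enzymes that modify and crosslink collagen, and the chaperone that holds procollagen while it folds. They were chosen by symbol, and all 10 had an entry among the 22629 genes measured. They are the prolyl 4-hydroxylase alpha subunits *P4HA1*, *P4HA2* and *P4HA3*, the lysyl hydroxylases *PLOD1* and *PLOD2*, the procollagen chaperone *SERPINH1* (HSP47), and the lysyl oxidases *LOX*, *LOXL1*, *LOXL2* and *LOXL3*. Each was set beside *COL1A1*, the main chain of type I collagen, which makes up most of the fibrillar collagen of a myocardial scar.

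Prolyl 4-hydroxylases act in the endoplasmic reticulum and make the hydroxyproline that keeps the collagen triple helix folded at body temperature. Lysyl hydroxylases modify lysines that later take part in crosslinks, and HSP47 binds the folded procollagen until it leaves the endoplasmic reticulum. Outside the cell, lysyl oxidases convert lysine and hydroxylysine side chains to aldehydes, from which the crosslinks that make collagen insoluble and stiff are formed. In the heart these genes are used mainly by fibroblasts, although most are also expressed at lower levels in other cells.

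Left ventricular RNA was sequenced from 4 pigs with cardiac ischemia/reperfusion (IR) injury and 4 sham-operated pigs, all White Yorkshire-Landrace, with 2 females and 2 males per surgery. The IR pigs had the left anterior descending artery occluded for 1 h and then reperfused, and they were given heparin. In sham pigs the suture was placed but the artery was not occluded. Pigs were operated on at 1 month of age, and hearts were taken 4 weeks later, at 2 months. Each pig gave 1 sample called the scar zone, also in sham pigs, and 1 from the border zone next to it. The paper's methods place the scar zone sample below the occlusion site in IR pigs and at that site in sham pigs. Its results place it beyond the suture in both. In IR pigs the scar zone sample was a mixture that included surviving muscle.

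Estimated counts, as deposited, summed to between 15427663 and 49045206 per sample (median 21822695), and male IR pigs had the deepest libraries, 33521418 to 49045206, against 15427663 to 21166014 in female IR pigs. All 16 libraries were rich in cardiomyocyte transcripts: the 9 markers with an entry, of 12 listed, summed to between 59180 and 98830 CPM, counts relative to the library total. *DDX3Y*, a Y-linked gene, was at 71.4 to 94.2 CPM in male libraries and at 0.382 to 1.19 CPM in female libraries, except the IR scar library of female pig 14, which had 4.25 CPM. Levels below are CPM scaled by TMM, a library-size correction, except where TPM, which also corrects for transcript length, is named, and 3 counts of a gene equalled 0.0693 to 0.204 CPM on this scale. These floors cover counting error only. In bulk tissue, fewer cells of a type and less RNA per cell cannot be told apart.

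The 10 genes differed widely in level. On the TPM scale *SERPINH1* was highest in sham scar zone tissue, at 186 ± 35.9 TPM (SD, n = 4). It was followed by *P4HA2* (32.8 ± 8.57), *PLOD1* (27.2 ± 3.66) and *LOXL2* (20.7 ± 4.75), whose ranges overlapped from each to the next. *P4HA1* (11.98 ± 1.51) and *LOXL1* (11.9 ± 4.92) came next and also overlapped. *PLOD2* had 6.95 ± 1.25 TPM, *LOX* 5.25 ± 1.07 and *LOXL3* 3.0 ± 0.726, with ranges that overlapped from each to the next. *P4HA3*, the least used alpha subunit in most tissues, was last at 0.350 ± 0.146 TPM, below all values of *LOXL3*. The neighbouring pairs whose ranges did not overlap were thus *SERPINH1* and *P4HA2*, *LOXL2* and *P4HA1*, *LOXL1* and *PLOD2*, and *LOXL3* and *P4HA3*.

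In the scar zone, no gene of the 10 passed the adjusted threshold between IR and sham pigs (edgeR quasi-likelihood test, a fold change of 2 or more with an adjusted p no higher than 0.05), and 0% of all genes did. DESeq2 called 52 genes, none of them among the 10. At the unadjusted p and the same fold change, 3 of 10 were higher in IR pigs, *P4HA3*, *LOX* and *LOXL1*, against 2.74% of the 14023 genes tested. The median log2 fold change was 0.58 over the 10 genes and 0.03 over all genes tested. The high values came from the 2 male IR pigs, 9 and 11, and the values of the 2 female IR pigs lay close to those of sham pigs. Without pig 9 or without pig 11, 2 of the 10 genes passed the unadjusted threshold, as also without sham pig 5 or sham pig 13, against 1.51% to 2.68% of genes in these 4 fits. With limma on log2(TPM + 1) or log2(TPM + 0.1), *LOXL1* was the 1 of 10 that passed it, against 1.04% and 1.65% of genes. No gene of the 10 separated all 4 IR from all 4 sham scar samples, which 2.20% of genes did with IR higher.

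**Figure D1:**
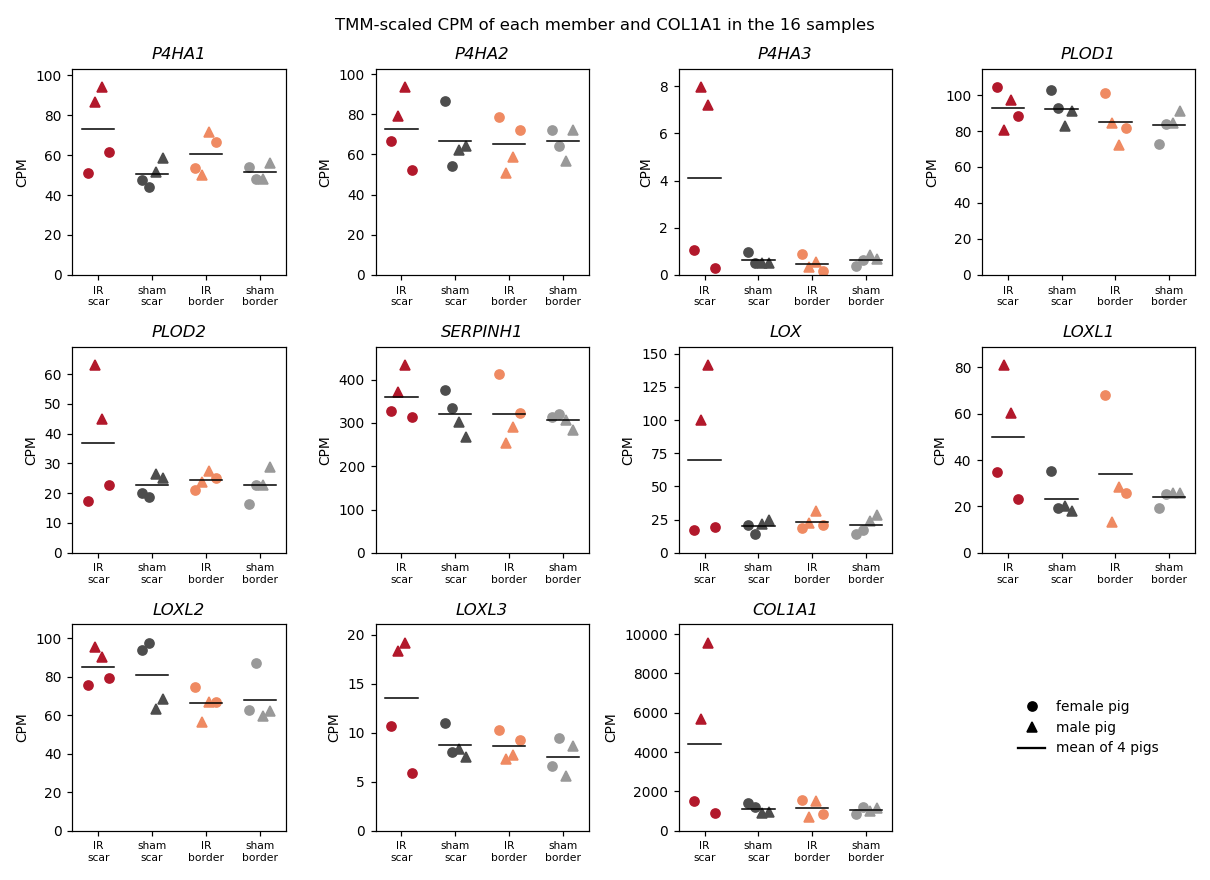
TMM-scaled CPM (linear axis from 0) of the 10 genes and *COL1A1* in each of the 16 samples, by group on the x axis; circles are female pigs, triangles male pigs and lines the mean of 4 pigs. In the IR scar zone, the triangles of *LOX* (99.99 and 141 CPM) and *P4HA3* (7.22 and 7.95 CPM) sit far above the 14 other samples, and *PLOD1* shows no such separation.

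Among the prolyl 4-hydroxylase alpha subunits, *P4HA3* had the largest fold change of the 10 genes. Its scar zone level was 1.04 and 0.272 CPM in female IR pigs 2 and 14, and 7.95 and 7.22 CPM in male IR pigs 9 and 11. Sham pigs 4, 5, 12 and 13 had 0.949, 0.518, 0.506 and 0.514 CPM. Both male IR samples were thus far above every other sample, while pig 14 was below all sham samples. These levels rest on few reads outside the male IR pigs: 341 and 241 counts in pigs 9 and 11, and 3 to 23 counts in each of the 14 other libraries. The log2 fold change was 2.75 (SE 0.86, p = 0.0101, adjusted p = 0.438), and an exact permutation test of log2 CPM gave p = 0.229.

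*P4HA1*, the alpha subunit of the main form of the enzyme in most cells, was at 50.9 and 61.4 CPM in female IR pigs 2 and 14 and at 86.7 and 94.0 CPM in male IR pigs 9 and 11. The sham scar samples had 47.6, 43.8, 51.6 and 58.5 CPM. Pig 2 lay within the sham range and the 3 other IR samples above it. The log2 fold change was 0.53 (SE 0.20, p = 0.0226, adjusted p = 0.438), short of the fold change threshold, with an exact permutation p of 0.0857. *P4HA2* ranged from 52.4 to 93.5 CPM in IR pigs and from 54.4 to 86.6 CPM in sham pigs, so the groups overlapped almost fully (log2 fold change 0.12, SE 0.20, adjusted p = 0.813).

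Of the lysyl hydroxylases, *PLOD2*, which acts on the telopeptide lysines of collagen, was at 17.3 and 22.8 CPM in female IR pigs 2 and 14. Male IR pigs 9 and 11 had 62.9 and 44.9 CPM, and the sham pigs 20.1, 18.9, 26.5 and 25.1 CPM. Pig 2 was the lowest of the 8 scar samples and pigs 9 and 11 the highest, and the log2 fold change of 0.71 (SE 0.36, adjusted p = 0.479) did not pass either threshold. Without pig 9 it was 0.31. *PLOD1*, which acts on lysines of the triple helix, did not separate the surgeries: it was at 80.6 to 104 CPM in IR pigs and 82.8 to 103 CPM in sham pigs (log2 fold change -0.01, SE 0.12, adjusted p = 0.986). *SERPINH1* was at 328, 313, 371 and 434 CPM in IR pigs 2, 14, 9 and 11, and at 377, 334, 302 and 267 CPM in sham pigs. These ranges overlapped (log2 fold change 0.17, SE 0.15, adjusted p = 0.650), although the highest scar value was again that of pig 11.

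*LOX*, the founding member of the lysyl oxidase family, was at 17.5 and 19.6 CPM in female IR pigs 2 and 14, and at 99.99 and 141 CPM in male IR pigs 9 and 11. The sham scar samples had 20.7, 14.5, 21.5 and 25.1 CPM. The female IR samples lay inside the sham range, and pigs 9 and 11 had 4.89 and 6.92 times the mean of the sham samples. The log2 fold change was 1.76 (SE 0.62, p = 0.0185, adjusted p = 0.438), and the exact permutation p was 0.314. The log2 fold change fell to 1.17 without pig 11 and to 1.12 with 1 RUVg factor, an estimate of unwanted variation, in the fit. The smallest p such a test of 4 against 4 can give is 0.0286.

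*LOXL1*, known for its part in elastic fibre assembly, was at 34.7 and 23.4 CPM in IR pigs 2 and 14 and 80.9 and 60.2 CPM in pigs 9 and 11. Sham pigs 4, 5, 12 and 13 had 35.1, 19.2, 20.03 and 18.2 CPM. Sham pig 4 alone overlapped with the IR samples. The log2 fold change was 1.103 (SE 0.38, adjusted p = 0.438 in edgeR). The exact permutation p was 0.0857. *LOXL3* was at 10.7, 5.92, 18.4 and 19.1 CPM in IR pigs 2, 14, 9 and 11, and at 7.55 to 11.03 CPM in sham pigs. Pig 14 had the lowest and pigs 9 and 11 the highest of these values (log2 fold change 0.63, SE 0.33, adjusted p = 0.484). *LOXL2*, another crosslinking member of the family, differed least of the 4, with 75.4 to 95.4 CPM in IR pigs and 63.0 to 97.3 CPM in sham pigs (log2 fold change 0.07, SE 0.17, adjusted p = 0.873).

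*COL1A1*, like *LOX* and *P4HA3*, was far higher in both male IR scar samples than in the 14 others. It was at 1505 and 905 CPM in female IR pigs 2 and 14, 5655 and 9534 CPM in male IR pigs 9 and 11, and 909 to 1414 CPM in sham scar samples. Its log2 fold change was 1.96 (SE 0.64, adjusted p = 0.438), and 1.25 without pig 11. Of the 10 genes, *LOX*, *LOXL3*, *PLOD2*, *P4HA1* and *P4HA3* had both male IR scar samples above the highest of the 14 other samples, as did 10.8% of 14278 genes, a pattern chosen after these 2 samples were seen to stand apart. For *LOXL1* the border sample of IR pig 2, at 68.2 CPM, lay between them.

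Cell type markers also set these 2 scar samples apart. The 10 fibroblast markers summed to 5095 and 4966 CPM in pigs 9 and 11, 2578 and 2040 CPM in pigs 2 and 14, and 2378 to 2523 CPM in sham scar samples. The 13 leucocyte markers summed to 390 and 357 CPM in pigs 9 and 11, 183 and 215 CPM in pigs 2 and 14, and 132 to 262 CPM in sham pigs. The 3 of 6 epicardial markers with an entry summed to 110 and 88.0 CPM in pigs 9 and 11 and to 24.3 to 50.4 CPM in the other scar samples. The 7 cartilage, tendon and bone markers, low in all other scar samples at 5.79 to 20.6 CPM, summed to 107 CPM in pig 9. No listed marker with an entry was at 0 in all libraries, and the part of the cell mixture in the levels of the 10 genes was not tested. The cardiomyocyte markers summed to 59180 CPM in pig 9 and to 73280 to 98830 CPM in the other scar samples. The 9 endothelial markers were lowest in pigs 9 and 11, at 957 and 1101 CPM, against 1174 to 1316 CPM in the 6 other scar samples.

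In the border zone no gene of the 10 passed either threshold between IR and sham pigs, where 0% of 13728 genes passed the adjusted one and 0.517% were higher at the unadjusted one. The log2 fold changes ran from -0.39 (*P4HA3*, SE 0.48) to 0.50 (*LOXL1*, SE 0.40), with a median of 0.08 against 2.7e-05 over all genes tested. *LOX* was at 18.4, 20.6, 22.3 and 31.5 CPM in IR pigs 2, 14, 9 and 11, and at 14.1, 16.8, 23.9 and 28.8 CPM in sham pigs. *P4HA3* was at 0.175 to 0.870 CPM in IR and 0.389 to 0.826 CPM in sham border samples. In neither gene did the border samples of pigs 9 and 11 stand apart as their scar samples did. The *LOXL1* value depended on IR pig 2, whose 68.2 CPM was far above the 13.5 to 28.6 CPM of the 3 other IR pigs and the 19.5 to 25.9 CPM of sham pigs. Without pig 2 its log2 fold change was -0.10, and in females alone it was the 1 of 10 genes past the unadjusted threshold, against 1.59% of genes. No gene of the 10 separated IR from sham border samples, and 0.794% of genes did with IR higher.

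**Figure D2:**
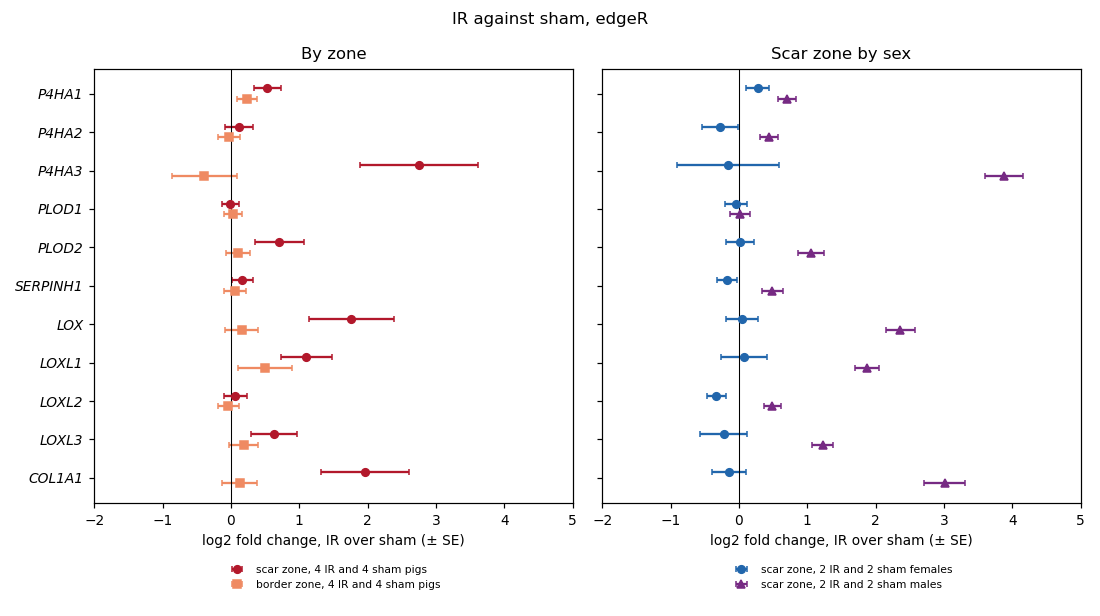
Log2 fold change of IR over sham (x axis, with SE) for the 10 genes and *COL1A1*: left, scar zone (circles) and border zone (squares), 4 against 4 pigs; right, scar zone in females (circles) and males (triangles), 2 against 2. *P4HA3*, *LOX* and *LOXL1* lie at 2.75, 1.76 and 1.103 in the scar zone, and the female values of all 10 genes lie between -0.33 and 0.27.

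Whether the IR effect differed between scar and border tissue was tested over all 16 samples. The scar minus border difference was 3.15 on the log2 scale for *P4HA3* (SE 1.06) and 1.62 for *LOX* (SE 0.72), and these were the 2 of 10 genes past the unadjusted threshold, against 1.32% of 14278 genes. No gene passed the adjusted threshold (0%). With the pig as a block, since both zones came from the same animal, 1 of 10 passed, against 1.39% of genes: *P4HA3* at 2.92 (SE 0.96), with *LOX* at 1.13 (SE 0.53) not past it. The count ranged from 1 to 3 when single pigs were left out, and was 1 without pig 5, 9, 11, 12 or 13, against 0.559% to 0.854% of genes in these 5 fits.

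Within IR pigs, scar against border tissue gave log2 fold changes of 3.14 for *P4HA3* and 1.59 for *LOX*, both past the unadjusted threshold, against 1.69% of 14170 genes (0% adjusted). With the pig as a block, *P4HA3* was at 2.86 (SE 0.82) and *LOX* at 1.11 (SE 0.47), of which the first passed, against 1.5% of genes. Leaving out pig 9 left 0 of 10 (0.488% of genes), and leaving out pig 11 left 1 (0.709%). Pig by pig, scar minus border log2 CPM of *LOX* was 2.16 in both pig 9 and pig 11 but -0.07 in both pig 2 and pig 14. The same difference for *P4HA3* was 4.36 and 3.58 in pigs 9 and 11, and 0.24 and 0.47 in pigs 2 and 14. The scar sample was thus far above the border sample in male IR pigs for both genes. The differences of the females were within counting error, with 18 *P4HA3* counts in either sample of pig 2 and 4 against 3 in pig 14, and give no direction for either gene. The difference for *LOXL2* was 0.01 to 0.76 in IR pigs, with no direction in pig 2 (75.4 against 74.8 CPM), and 0.08 to 0.58 in sham pigs. In sham pigs no gene of the 10 passed either threshold between zones, where 0.029% of 13803 genes were higher in the scar zone at the unadjusted one and 0% at the adjusted one. With the pig as a block, *LOXL2* in sham pigs had a log2 difference of 0.24 (SE 0.09, adjusted p = 0.931 in edgeR), short of the fold change threshold.

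Since each surgery group held both sexes, the IR effect in the scar zone was compared between males and females by an interaction term. *LOX* differed, with an effect 2.31 larger on the log2 scale in males (SE 0.32, adjusted p = 0.0229), and it was the only 1 of 10 past the adjusted threshold, against 1.11% of genes with a larger effect in males. *COL1A1* also passed, at 3.16 (SE 0.43, adjusted p = 0.0229). The other values were 4.02 for *P4HA3* (adjusted p = 0.0524), 1.80 for *LOXL1* (adjusted p = 0.0844), 1.44 for *LOXL3* and 1.04 for *PLOD2*, and these 4 genes passed with DESeq2. With *LOX*, 5 of 10 were then called, where DESeq2 called 3.36% of genes with a larger effect in males. All 10 differences were positive, against 49.9% of all genes tested, with a median of 0.93 against -1.2e-03, and the smallest was 0.07 for *PLOD1*. The comparison rests on 2 pigs per surgery and sex, and in IR pigs sex cannot be told apart from library depth or from differences between individual pigs.

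Like that of *COL1A1*, the *LOX* call was sensitive to single pigs. It stayed past the adjusted threshold without pig 5, 9 or 11 (adjusted p = 0.0404, 0.0237 and 0.0360) and was lost without pig 2, 4, 12, 13 or 14 (adjusted p from 0.0599 to 0.116), and the difference itself stayed between 2.02 and 2.55. The number of genes past the threshold fell from 210 to 138 without pig 2, 29 without pig 4, 52 without pig 5, 123 without pig 9, 40 without pig 14 and 1 without pig 12 or pig 13. In the border zone no gene of the 10 passed (0.00728% of genes had a larger effect in males), and 1 of 10 differences was positive, against 49.7% of genes, with a median of -0.32 against -3.6e-03. With DESeq2, *LOXL1* passed the unadjusted threshold there at -1.37, the smaller effect in males, against 2.62% of genes.

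Fits within 1 sex, added after these values were seen, gave the sizes. In males, 5 of 10 genes passed the adjusted threshold in the scar zone, against 3.26% of genes that were higher. These were *P4HA3* with a log2 fold change of 3.87 (SE 0.27), *LOX* with 2.36 (SE 0.21), *LOXL1* with 1.88 (SE 0.18), *LOXL3* with 1.22 (SE 0.15) and *PLOD2* with 1.05 (SE 0.19). *P4HA1* had 0.70 (SE 0.13, adjusted p = 0.0413 in edgeR), below the fold change threshold. *LOXL2*, *SERPINH1* and *P4HA2* had values of 0.49, 0.49 and 0.44 that did not pass, and *PLOD1* had 0.02. In females the 10 values lay between -0.33 (*LOXL2*) and 0.27 (*P4HA1*), and none passed, against 0.00727% of genes that were higher. At the unadjusted threshold the counts were also 5 of 10 in males, against 7.5% of genes, and 0 of 10 in females, against 1.57%. These 2-against-2 fits describe the same pigs as the interaction.

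The enzymes of a family did not move by the same factor, so the makeup of each family differed in pigs 9 and 11. *LOX* made up 24.8% and 35.6% of the summed TPM of *LOX* and *LOXL1* to *LOXL4* in their scar samples. Female IR pigs 2 and 14 had 9.16% and 12.3% in the scar zone. Sham females 4 and 5 had 10.5% and 9.35% there, and sham males 12 and 13 had 15.6% and 17.0%. *LOXL2*, the largest contributor in sham scar tissue at 45.7% to 59.7%, was at 25.2% and 24.4% in pigs 9 and 11. *P4HA3* held 6.92% and 5.56% of the alpha subunit TPM in these samples and 0.373% to 1.31% in the 6 other scar samples. *PLOD2* held 31.6% and 21.8% of the lysyl hydroxylase TPM (*PLOD1* to *PLOD3*), against 9.24% to 16.7% in the others. Its share in sham scar samples was 10.7% and 11.2% in females 4 and 5 and 16.7% and 14.9% in males 12 and 13. The summed lysyl oxidase family TPM was 83.9 ± 51.4 (SD, n = 4) in IR scar, 41.4 ± 9.94 in sham scar, 44.2 ± 13.9 in IR border and 37.8 ± 6.01 in sham border samples. These shares were computed after the values were seen and carry no test.

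**Figure D3:**
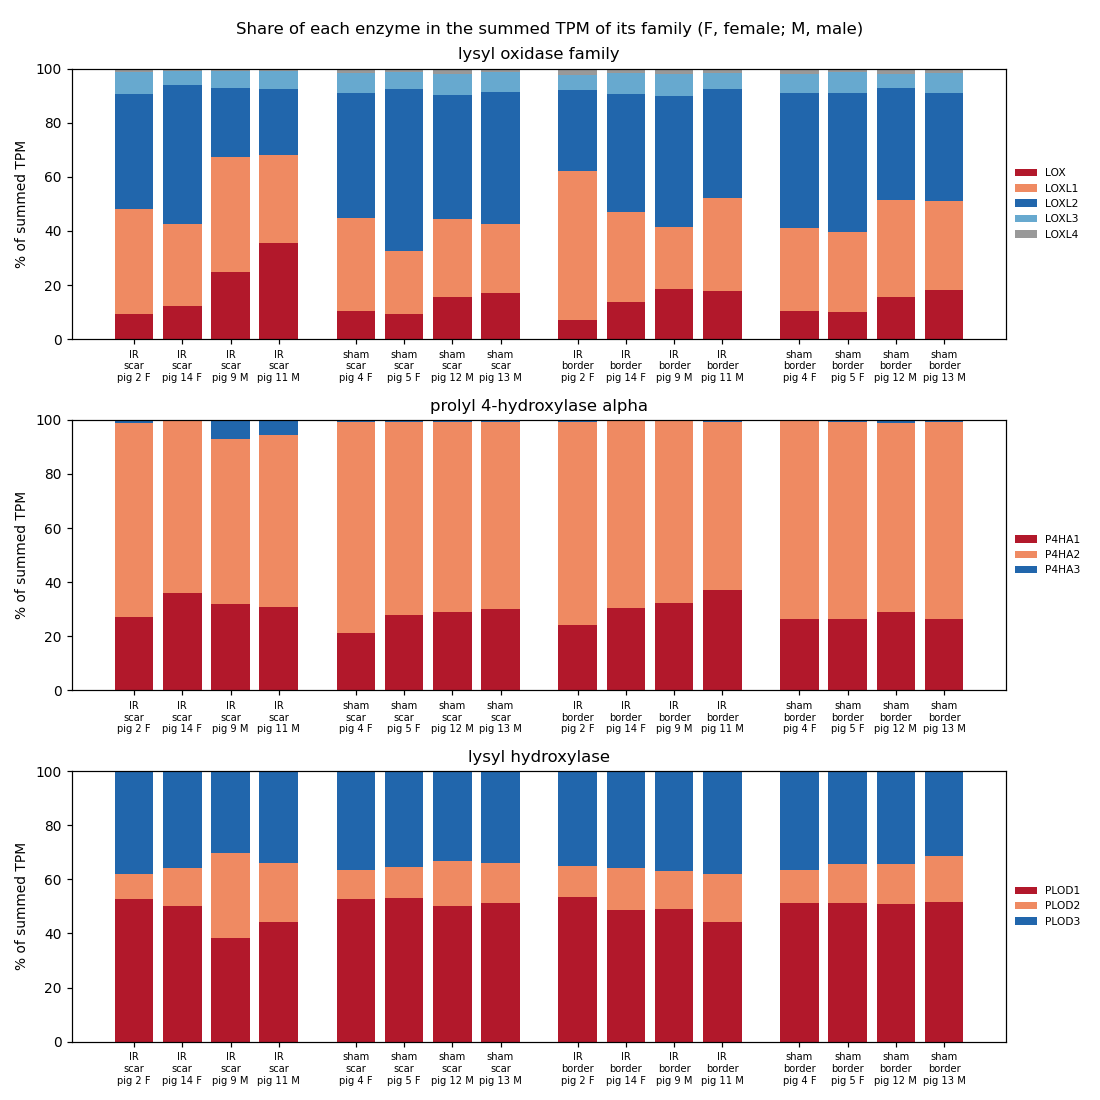
Share of each enzyme (stacked bars, % of the summed TPM) in the lysyl oxidase, prolyl 4-hydroxylase alpha and lysyl hydroxylase families, 1 bar per sample, with group, pig and sex (F, M) on the x axis. In the IR scar samples of male pigs 9 and 11, *LOX* reaches 24.8% and 35.6%, *P4HA3* 6.92% and 5.56% and *PLOD2* 31.6% and 21.8%.

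Relative to *COL1A1*, the mean level of 9 of the 10 genes was lower in IR than in sham scar tissue, as was that of 98.9% of all genes, and the groups overlapped. The log2 ratio of the gene to *COL1A1* in IR minus sham pigs was -1.40 for *PLOD1*, -1.31 for *LOXL2*, -1.29 for *P4HA2* and -1.23 for *SERPINH1*. It was -0.91 for *LOXL3*, -0.90 for *P4HA1*, -0.87 for *PLOD2* and -0.40 for *LOXL1*. *LOX* (-0.18) and *P4HA3* (0.29) came nearest to an equal difference, and for *P4HA3* the sign depended on the scale, with -0.43 on log2(TPM + 1). In an exact permutation test of each ratio, the smallest p of the 10 genes was 0.0571 (adjusted p = 0.355 over all genes). The smallest p a test of this size can give is 0.0286, which could pass adjustment only if most genes reached it. That none of the 10 passed after adjustment therefore decides nothing about these ratios. No ratio of the 10 separated IR from sham pigs, and 3.91% of genes did with IR lower. In the border zone the ratios of *LOX* and *LOXL1* differed by 0.12 and 0.20 and that of *P4HA3* by -0.54.

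Over the 16 samples, Pearson's r of log2 CPM with *COL1A1* was 0.95 for *P4HA3*, ranking 13 of 14277 genes, and 0.89 for both *LOX* (ranking 108) and *LOXL3* (ranking 113). It was 0.82 for *LOXL1*, 0.75 for *PLOD2* and *P4HA1*, 0.72 for *SERPINH1*, 0.65 for *P4HA2*, 0.61 for *LOXL2* and 0.22 for *PLOD1*. These values describe samples that share pigs and include scar samples 9 and 11, which stand apart. Without these 2 samples r was 0.78 for *LOXL1*, 0.75 for *P4HA3*, 0.62 for *SERPINH1* and 0.60 for *LOXL3*, but 0.01 for *LOX*, -0.07 for *P4HA1* and -0.19 for *PLOD2*. It was 0.56 for *LOXL2*, 0.43 for *P4HA2* and 0.48 for *PLOD1*, of which the last was higher than over all 16. Spearman's rho over the 16 samples was 0.90 for *P4HA3* and 0.81 for *LOXL1*, and 0.29, 0.19 and 0.17 for *LOX*, *PLOD2* and *P4HA1*. The high r of *LOX*, *P4HA1* and *PLOD2* over the 16 samples thus rested on these 2 samples.

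**Figure D4:**
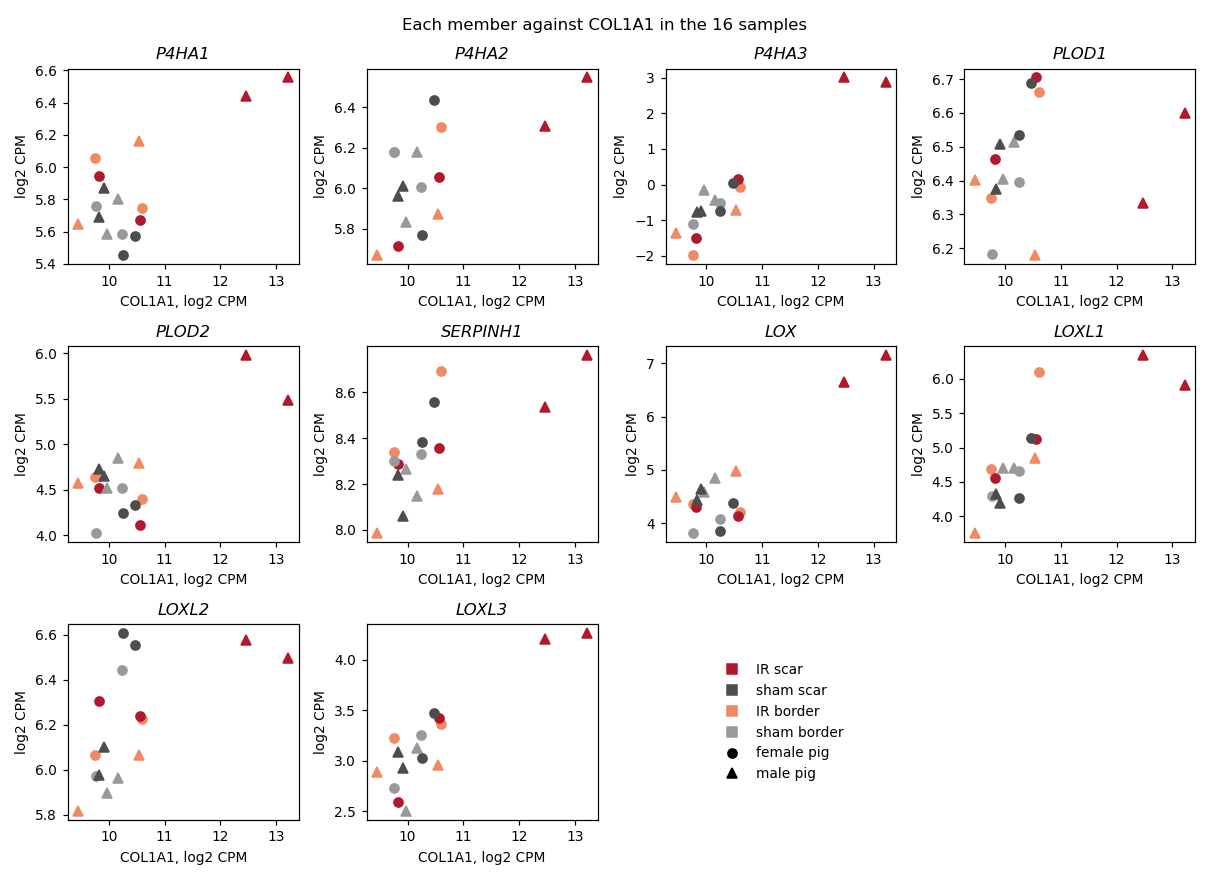
Log2 CPM of each of the 10 genes (y axis) against log2 CPM of *COL1A1* (x axis) in the 16 samples, coloured by group, with circles for female and triangles for male pigs. The IR scar samples of pigs 9 and 11 lie alone at the right, and among the 14 other samples *LOXL1* and *P4HA3* follow *COL1A1* (r of 0.78 and 0.75) while *LOX* does not (0.01).

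Within the scar zone, 8 of 10 genes had a positive r with *COL1A1* at the unadjusted exact permutation p over 8 pigs, against 13.4% of genes, and none after adjustment over all genes (0% of genes; smallest adjusted p of the 10 genes 0.111). In the 6 pigs other than 9 and 11 this count was 3, against 5.23% of genes: *PLOD1* (r = 0.94, exact p = 0.00278), *P4HA3* (r = 0.88, exact p = 0.00139, the smallest possible) and *LOXL3* (r = 0.84, exact p = 0.0375), before adjustment. In the same 6 pigs *PLOD2* had a negative r (r = -0.89, exact p = 0.0417), and *LOX* (r = -0.48) and *P4HA1* (r = -0.64) were negative without passing. The only males among these 6 were sham pigs 12 and 13, which had the highest *PLOD2* (26.5 and 25.1 CPM) and *LOX* (21.5 and 25.1 CPM). Their *COL1A1* was at 909 and 962 CPM, against 905 to 1505 CPM in the females. The part of sex in these r was not tested. The smallest adjusted p over 8 pigs belonged to *LOXL3* (r = 0.94, rho = 0.90). *P4HA3* followed with r = 0.97 and rho = 0.98 (adjusted exact p = 0.119 for r). In the border zone 1 of 10 genes, *LOXL1* (r = 0.82, rho = 0.81, exact p = 0.00546), passed before adjustment, against 3.18% of genes, and none passed after it (0%). Its r without pigs 2 and 9 was 0.67 (exact p = 0.144).

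The 3 genes whose log2 CPM most resembled each of the 10 over the 16 samples were ranked by Pearson's r. For *LOX* they were *CLMP* (r = 0.98), *UAP1* and *OGN* (both 0.96), and for *PLOD2* they were *PROS1* (0.95), *FAP* and *CLMP* (both 0.94). *P4HA3* was nearest to *MFAP2*, *CERCAM* and *NBL1* (all 0.96), *LOXL3* to *THBS3*, *COL5A1* and *MRC2* (0.94, 0.94 and 0.93), and *LOXL1* to *PYCR1*, *CHPF* and *TSKU* (0.94, 0.92 and 0.92). *P4HA1* was nearest to *DNAJC3*, *ASPN* and *ALDH18A1* (0.93, 0.93 and 0.92). The highest r was lower for *P4HA2* (*DBN1*, 0.88), *SERPINH1* (*SURF4*, 0.86), *LOXL2* (*LRP4*, 0.85) and *PLOD1* (*CDC42BPB*, 0.83). Among the 10 genes themselves, *LOX* and *PLOD2* were alike (r = 0.92), as were *LOX* and *P4HA1* (0.87), while *PLOD1* and *PLOD2* were not (-0.15). All these values describe 16 samples from 8 pigs, with scar samples 9 and 11 included.

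A list of 27 other genes for collagen modification, folding, propeptide removal and crosslinking was read beside them. In the scar zone 23 of 27 had a positive log2 fold change, against 53.9% of all genes tested, and 4 were higher at the unadjusted threshold, against 2.74%. None passed the adjusted threshold, and the median was 0.36, against 0.03 over all genes. The list summed to 7171 and 7371 CPM in the scar samples of pigs 9 and 11 and to 2349 to 2970 CPM in the 6 others. In females alone 7 of 26 were positive, with a median of -0.17, against -0.01 over all genes. In males alone 23 of 27 were positive, with a median of 0.72, against 0.01 over all genes. The highest were *FMOD*, a collagen fibril-binding proteoglycan (3.22, SE 0.78), *TLL1*, a procollagen C-proteinase (1.36, SE 0.87), *FKBP10*, a collagen-folding isomerase (1.25, SE 0.42), and *SPARC*, a collagen-binding matrix protein (1.19, SE 0.44). *FMOD*, *FKBP10* and *SPARC* were 3 of the 4 past the unadjusted threshold, and *TLL1* was not. The level of *TLL1* was low, at 0 to 1.82 CPM in IR and 0.316 to 0.452 CPM in sham scar samples. *FMOD* was at 37.7 to 629 CPM in IR scar samples and 23.8 to 33.6 CPM in sham scar samples (adjusted p = 0.438 in edgeR). These ranges did not overlap, as was the case for 2.20% of all genes with IR higher. The lowest were *ADAMTS3*, a procollagen N-proteinase (-0.65, SE 0.38), and *TMEM38B*, an ion channel of the endoplasmic reticulum (-0.30, SE 0.16). In the border zone 15 of the 26 tested were positive, close to the 50% of all genes, and none passed either threshold (0.517% of genes were higher at the unadjusted one).

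In the comparison of the IR effect between sexes, 6 of the 27 had a larger scar zone effect in males at the adjusted threshold, beside 5 of the 9 fibrillar collagen chains tested and 5 of the 10 fibroblast markers, against 1.11% of all genes. The 6, of which *P3H3*, *ADAMTS2* and *EFEMP2* were named after their values were seen, were *FMOD* (2.96), *SPARC* (2.14), *P3H3* (2.04), *FKBP10* (1.96), *ADAMTS2* (1.90) and *EFEMP2* (1.35). The fit behind these counts was sensitive to leaving out single pigs, as given above. The 14 measured of 17 genes induced by hypoxia, a class to which *LOX*, *PLOD2* and *P4HA1* are known to belong, had a median scar zone log2 fold change of 0.06, against 0.03 over all genes, and none passed either threshold, against 2.74% higher at the unadjusted one. They summed to 949.9 and 1171 CPM in the scar samples of pigs 9 and 11, of which the first was the lowest of the 8, and to 1148 to 1421 CPM in the 6 others. Of 10 TGF-beta responsive genes, 3 were higher at the unadjusted threshold, against 2.74% of all genes, and none passed the adjusted one. Their median was 0.54, against 0.03 over all genes, and it was 0.14 in females alone and 1.21 in males alone. They summed to 2197 and 1701 CPM in the scar samples of pigs 9 and 11 and to 605.8 to 783.8 CPM in the 6 others. The part of hypoxia or TGF-beta signalling in the levels of the 10 genes was not tested.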

How the data were processed

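RNA-seq of 16 myocardial samples was analysed. Per the paper and the submitters' processing notes, the authors trimmed reads of polyadenylated RNA with Trimmomatic 0.33, used HISAT2 2.0.5 for alignment and quantified transcripts with kallisto 0.43.1 on an index of Ensembl pig cDNA. The genome build is not given in the sources used here. The authors deposited estimated counts per gene, which divide reads shared by similar transcripts, and TPM, which also corrects them for transcript length and depth. The paper names RUVSeq but not its settings, and the fit was made without it.

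Groups came from the labels (surgery, zone, sex and pig). Estimated counts were rounded and tested in R 4.3.3 with edgeR 4.0.16 (TMM, filterByExpr with minimum count 10 and minimum total count 15, quasi-likelihood test, p adjusted over all genes tested by Benjamini-Hochberg). A call needed a fold change of 2 or more with an adjusted p no higher than 0.05. Log2 CPM used a prior count of 2. Permutation tests were exact and two-sided. The pig number pairs both zones of 1 animal, and their deviations from the group means correlated at 0.354 to 0.692 over 14278 genes. Samples correlated at 0.926 to 0.991 in log2 CPM, so none was counted as a duplicate.

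Alternatives were DESeq2 1.42.0, upper-quartile scaling, no filter, 1 RUVg factor from 5000 genes, sex as a covariate, 1 fit of all samples, limma 3.58.1 on log2(TPM + 1) and log2(TPM + 0.1) for genes reaching 1 TPM in 4 or more samples, the pig as a replicate block, and leaving out each pig. Fits within 1 sex and the family shares were added after seeing the data, as was leaving out pigs in the sex comparison. The tests were checked on simulated data. The 10 genes and the gene lists were chosen with earlier results of these data known. Named beside them were the 4 highest and 2 lowest genes of the modification list in the scar zone and the 3 genes most like each.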

Additional observations from a re-analysis of the deposited data

Results flagged for a closer look

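In 4 of 44 groups of 4 samples tested, the gap between 1 sample and the rest, as a share of the group's range, passed the 95% critical value of Dixon's test, and chance alone passes about 1 in 20 groups. Sham pig 4 was highest for *LOXL1* in the scar zone (log2 CPM 5.14, 35.1 CPM) and lowest in the border zone (log2 CPM 4.29, 19.5 CPM). The same pig was highest for *P4HA3* in the sham scar zone (log2 CPM 0.040, 0.949 CPM). Sham pig 5 was highest for *LOXL2* in the border zone (log2 CPM 6.44, 86.9 CPM). The IR scar samples of pigs 9 and 11 did not meet this criterion, because 2 high samples of 4 leave no single gap.

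The IR effect in the scar zone differed between the sexes in the interaction test for *COL1A1* (3.16 on the log2 scale) and *LOX* (2.31), each with an adjusted p of 0.0229 and the larger effect in males, from 2 pigs per surgery and sex.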

How the results depend on the processing

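In the scar zone, edgeR called 0 genes between IR and sham pigs, with 384 higher and 86 lower at the unadjusted threshold. DESeq2 called 52 genes, limma 3 on log2(TPM + 1) and 1 on log2(TPM + 0.1), females alone 1 and males alone 623. None of the 10 genes was called except 5 in males alone. At the unadjusted threshold the count of 3 among the 10 became 1 with limma on either scale, where *P4HA3* did not pass the TPM filter and *LOXL1* remained (1.04% and 1.65% of genes), 0 in females (1.57%) and 5 in males (7.5%). In females the log2 fold change turned negative for *LOXL2* (-0.33), *LOXL3* (-0.22), *P4HA2* (-0.27), *P4HA3* (-0.16) and *SERPINH1* (-0.18). That of *PLOD1*, near 0 throughout, was positive with 1 RUVg factor (0.0015), in 1 fit of all samples (0.0023), with limma (0.17 and 0.18) and in males (0.020). Leaving out single pigs gave ranges of 2.20 to 3.12 for *P4HA3*, 1.17 to 2.08 for *LOX*, 0.75 to 1.37 for *LOXL1*, 0.31 to 0.94 for *PLOD2*, 0.42 to 0.87 for *LOXL3*, 0.39 to 0.67 for *P4HA1*, 0.069 to 0.25 for *SERPINH1*, -0.046 to 0.17 for *LOXL2*, -0.073 to 0.046 for *PLOD1* and -0.023 to 0.26 for *P4HA2*.

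In the border zone DESeq2 and the fit of females alone each called 2 genes in place of 0, and 1 of the 10, *LOXL1*, passed the unadjusted threshold in females, against 1.59% of genes. The log2 fold change was -0.29 for *LOXL1* in males and 0.094 for *P4HA3* in females, and without single pigs it ranged from -0.10 to 0.77 for *LOXL1* and from -0.031 to 0.35 for *LOX*. With the pig as a replicate block, 1 of the 10 passed the unadjusted threshold for the zone difference and 1 for scar against border tissue in IR pigs, in place of 2 each, and the block changed no other call among the 10. Without single pigs these counts ranged from 1 to 3 (0.559% to 2.42% of genes) and from 0 to 3 (0.488% to 2.61%). For the sex comparison DESeq2 called 711 genes in place of 210 in the scar zone and 45 in place of 2 in the border zone, where *LOXL1* (-1.37, the smaller effect in males) then passed the unadjusted threshold, as 1 of the 10 against 2.62% of genes. Without single pigs the scar zone count ranged from 1 to 160 and the *PLOD1* difference from -0.067 to 0.20, and a lone sample was then assumed to vary like the other groups. DESeq2 added *P4HA3*, *LOXL1*, *LOXL3* and *PLOD2* to *LOX* among the genes called.

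The ratio of *P4HA3* to *COL1A1* turned to -0.43 on log2(TPM + 1), where the added 1 exceeded the TPM of *P4HA3* in most libraries. Without the 2 pigs farthest from the median of *COL1A1*, the scar zone r was -0.48 for *LOX*, 0.94 for *PLOD1*, -0.89 for *PLOD2* and -0.64 for *P4HA1*. With all pigs, r of *PLOD1* on log2(TPM + 1) was 0.81. Without the 2 farthest pigs of each zone, the count of genes with a positive r at the unadjusted exact permutation p fell to 3 in scar tissue (5.23% of genes) and 0 in border tissue. Without single pigs these counts ranged from 3 to 8 (6.49% to 13.2% of genes) and from 1 to 3 (1.46% to 4.46%), and r of *PLOD1* from -0.28 to 0.40. The scar zone count was 5 without pig 9 and 3 without pig 11. At 3 to 23 counts in most libraries, *P4HA3* was the gene most limited by depth.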
